A study of Mus musculus with 15 samples.

Results

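The interferon-stimulated genes described here are 39 genes chosen by name, from sensors of foreign RNA to antiviral GTPases, and read from a bone marrow expression table of 38315 genes. All 39 were in the table, and all 39 were among the 18941 genes that reached a normalized count of at least 10 in at least 4 libraries and were tested. RNA of mouse bone marrow was sequenced in 15 libraries. Acute myeloid leukaemia (AML) marrow came from mice of the genotype NUP98-NSD1/FLT3-ITD (7 libraries), and the controls were whole marrow of wild-type mice (4 libraries) and marrow of wild-type mice depleted of cells that carry mature blood lineage antigens, called lineage-negative marrow (4 libraries). The NUP98-NSD1 fusion joins a nucleoporin to a histone methyltransferase, and the FLT3-ITD allele is a tandem duplication that keeps the receptor kinase FLT3 active. The labels give no strain, age, sex, promoter or allele design, no antibodies for the depletion, and no statement on which libraries share an animal, so the p-values measure the spread between these libraries.

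Interferons are secreted when cells sense viral or misplaced nucleic acid. Type I and type III interferons act through the kinases JAK1 and TYK2 on a complex that holds STAT2 and IRF9 and binds a promoter element called ISRE, while interferon gamma acts mainly through an element called GAS. The induced genes block viral replication and raise the cell's own sensors, and in bone marrow interferons also act on stem and progenitor cells.

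In AML marrow most of these genes were more abundant than in either kind of normal marrow. Against whole marrow 31 of 39 were higher and 1 was lower, at a Benjamini-Hochberg adjusted p under 0.05 in limma and a log2 difference of at least 1, where 27.3% of all genes tested were higher and 11.3% were lower. Against lineage-negative marrow 31 were higher and 0 were lower, beside 17.7% and 12.5% of all genes. The members' median log2 difference was 1.60 against whole marrow, where the median of all genes was 0.67, and 2.12 against lineage-negative marrow, where it was 0.02. Between the normal groups, 15 members were lower and 2 were higher in lineage-negative than in whole marrow, beside 17.2% and 33.1% of all genes. Only genes that passed the filter on low values were counted, members included.

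The comparison with whole marrow depended on how the libraries were scaled. The deposited values left the median gene 0.67 log2 units higher in AML than in whole marrow, and TMM scaling (trimmed mean of M values) brought this to −0.01. With TMM 16 members were higher than in whole marrow (4.73% of all genes) and 2 were lower (16% of all genes), so that 88.9% of the members' calls were upward in place of 96.9%. The members' median was then 0.91, so they stood above the median gene by 0.93 with the deposited scaling and by 0.92 with TMM. Against lineage-negative marrow TMM changed nothing in the counts, with 31 higher (17.6% of all genes) and 0 lower (12.4%). For each member whose call or direction in AML against whole marrow changed with TMM, the TMM value is given below. The whole marrow libraries were also the shallowest, with an estimated 11.4 to 17.2 M reads, where AML had 20.3 to 35.1 and lineage-negative marrow 20.3 to 28.1, and their mean over 1750 olfactory and vomeronasal receptor genes was 6.31 to 11.9 normalized counts against at most 3.34 elsewhere. The part of that background in the results was not tested.

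**Figure D1:**
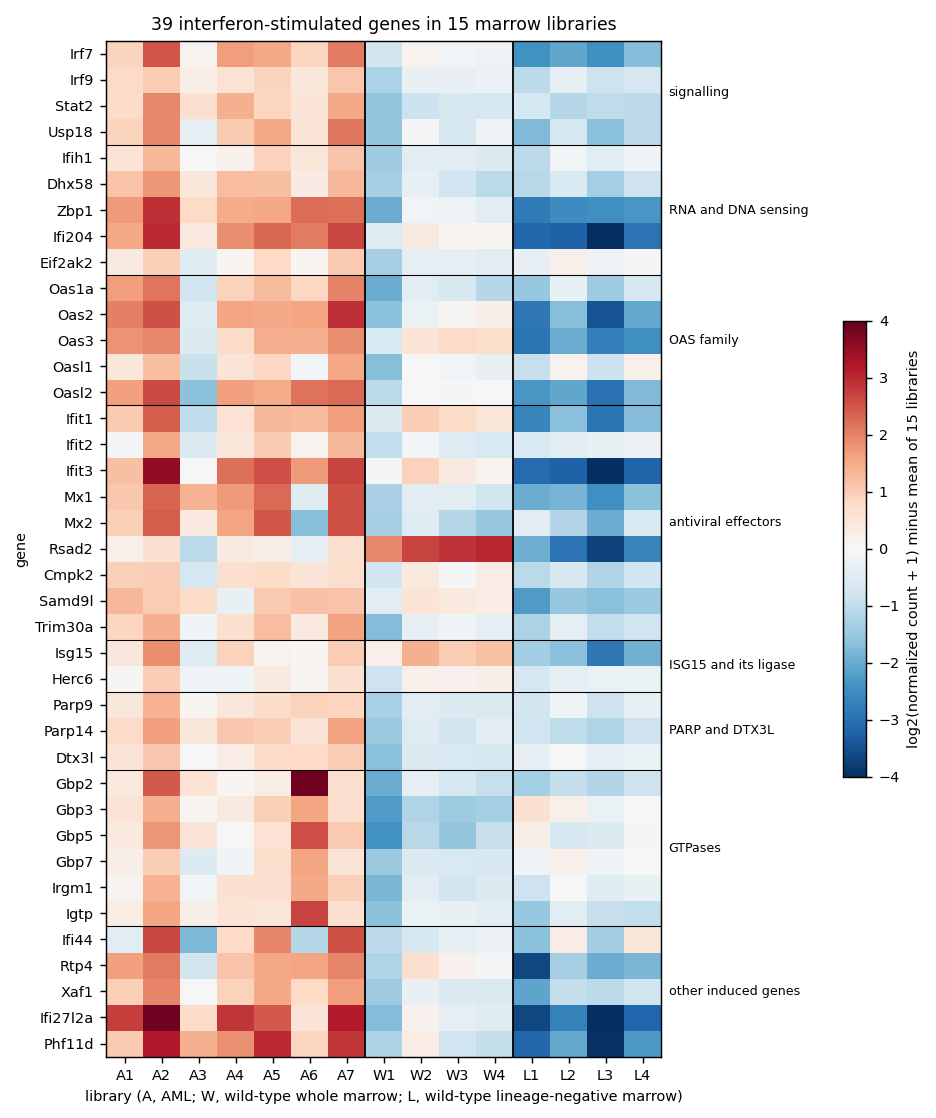
Heat map of the 39 genes (rows, grouped by role) in 15 libraries (columns; A1 to A7, AML; W1 to W4, whole marrow; L1 to L4, lineage-negative marrow), as log2(normalized count + 1) minus the gene's mean over the 15 libraries, with colours ending at 4 in either direction. Most rows are red in AML and blue in both normal groups, while Rsad2 is reddest in whole marrow and the GTPase rows are reddest in A6.

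A strict count needed no test. For 16 of 39 members all 7 AML libraries lay above all 8 normal libraries (8.56% of all genes did so), and for 0 they lay below (1.85% of all genes). These 16 were Irf7, Irf9, Stat2, Ifih1, Dhx58, Zbp1, Ifi204, Trim30a, Parp9, Parp14, Dtx3l, Gbp2, Igtp, Xaf1, Ifi27l2a and Phf11d, and with TMM 10 members lay above (4.16% of all genes) and 0 below (3.96%). The members of the 16 that overlapped normal libraries with TMM were Irf7, Ifih1, Ifi204, Trim30a, Xaf1 and Ifi27l2a. Against whole marrow alone, 20 members had all AML libraries above (35.8% of all genes) and 1 had all below (7.88%), and with TMM 12 (10.9%) and 1 (15.1%). Against lineage-negative marrow alone, the counts were 28 (17%) and 0 (17.6%), and with TMM 29 (17.4%) and 0 (17.8%). AML replicate 3 held many of the lowest AML values, and without it 25 of 39 lay above all normal libraries. Leaving out an AML library can only keep or raise such a count, and the matching share of all genes is not given here. None of the OAS, IFIT or MX genes was among the 16. In bulk RNA, fewer cells of a type and less RNA per cell cannot be told apart.

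By mean log2 value, 24 members were ordered AML, whole marrow, lineage-negative marrow from high to low, an order that 16.3% of all genes had. Another 13 were ordered AML, lineage-negative, whole marrow (23.0% of all genes), and Rsad2 and Isg15 were ordered whole marrow, AML, lineage-negative (11.6% of all genes). With TMM these counts were 30, 3 and 6 (17.9%, 9.56% and 23.6% of all genes), the last then holding also Ifit1, Cmpk2, Samd9l and Herc6 and being a smaller share of the members (15.4%) than of all genes.

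The promoters of 6 members are shown because they carry the patterns described below: Isg15 and Rsad2, which were not higher in AML than in whole marrow, Ifit3 and Oas1a, which were higher in both comparisons, and Gbp2 and Igtp, which peaked in a different AML library from the rest. Each is the 200 bases before the annotated start, 5′ to 3′ on the gene's strand, from RefSeq (GRCm38.p6), with capitals marking every match to the core of the ISRE (GAAA, any 2 bases and GAAA, or TTTC, any 2 bases and TTTC where it lies on the other strand) or to the core of the GAS (TTCNNNGAA, the same on either strand). They lie at chr4:156200819-156201018 (Isg15, minus strand), chr12:26456453-26456652 (Rsad2, minus), chr19:34583329-34583528 (Ifit3, plus), chr5:120907526-120907725 (Oas1a, minus), chr3:142620463-142620662 (Gbp2, plus) and chr11:58199356-58199555 (Igtp, plus).
Isg15: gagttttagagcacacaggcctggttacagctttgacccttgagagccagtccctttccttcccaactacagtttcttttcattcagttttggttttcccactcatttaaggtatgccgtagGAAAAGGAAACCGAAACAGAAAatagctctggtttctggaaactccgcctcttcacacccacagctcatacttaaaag
Ifit3: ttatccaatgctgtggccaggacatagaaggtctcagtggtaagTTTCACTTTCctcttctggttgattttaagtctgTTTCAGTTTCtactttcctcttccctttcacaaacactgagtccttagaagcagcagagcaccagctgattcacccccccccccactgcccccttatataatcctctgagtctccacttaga
Oas1a: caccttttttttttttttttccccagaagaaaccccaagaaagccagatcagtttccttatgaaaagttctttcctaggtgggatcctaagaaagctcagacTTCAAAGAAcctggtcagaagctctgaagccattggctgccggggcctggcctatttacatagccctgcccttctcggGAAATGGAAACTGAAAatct
Rsad2: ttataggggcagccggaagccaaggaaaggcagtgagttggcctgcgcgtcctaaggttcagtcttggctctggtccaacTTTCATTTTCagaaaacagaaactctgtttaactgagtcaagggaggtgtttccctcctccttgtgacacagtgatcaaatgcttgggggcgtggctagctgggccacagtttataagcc
Gbp2: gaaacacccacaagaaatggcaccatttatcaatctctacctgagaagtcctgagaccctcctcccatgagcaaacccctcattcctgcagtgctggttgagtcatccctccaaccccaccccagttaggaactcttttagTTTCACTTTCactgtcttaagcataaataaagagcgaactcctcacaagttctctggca
Igtp: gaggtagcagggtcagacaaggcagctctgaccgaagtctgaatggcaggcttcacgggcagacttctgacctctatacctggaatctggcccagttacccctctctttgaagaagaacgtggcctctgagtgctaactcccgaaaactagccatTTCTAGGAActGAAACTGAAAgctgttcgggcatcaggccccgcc
Isg15 holds 3 ISRE matches that overlap in a single run, Ifit3 holds 2 apart from each other, and Oas1a holds 2 that overlap close to the start besides a GAS match further upstream. Rsad2 and Gbp2 hold 1 ISRE match each, and in Igtp a GAS match stands next to an ISRE match. A promoter window of 300 bases, from 250 before to 50 after the start, was found for 28 of the 39 members. Of these 28, 16 held an ISRE core (57.1%), against 3.99% of the 27025 genes with a window, and 6 held a GAS core (21.4%), against 9.55%. All 6 GTPase genes held the ISRE core and 3 of them, Gbp5, Gbp7 and Igtp, held the GAS core, while the other GAS matches were in Eif2ak2, Oas1a and Ifit2. Overlapping matches were each counted, and a match is a description of letters, not of a bound site.

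**Figure D2:**
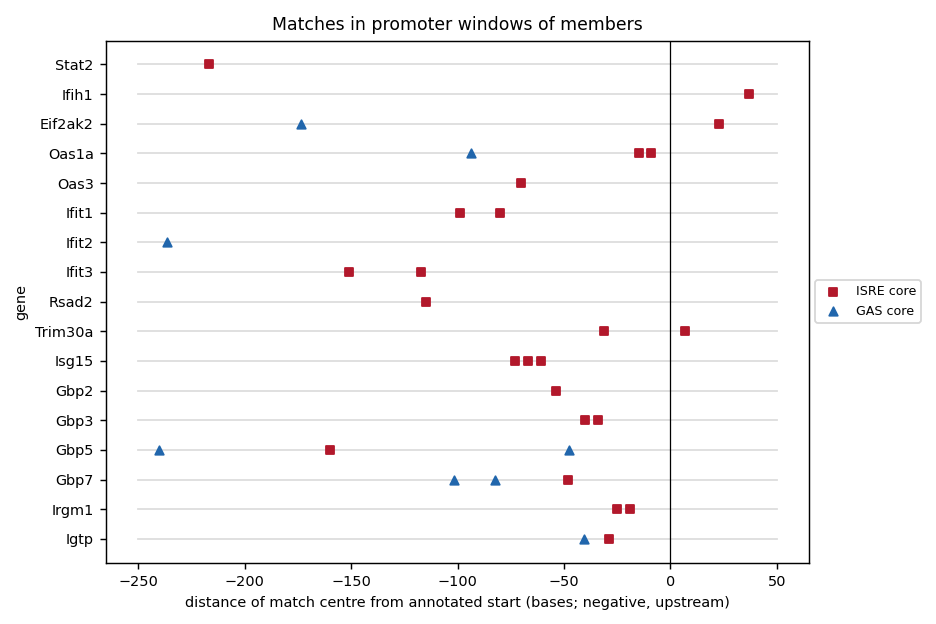
Positions of the ISRE core (squares) and GAS core (triangles) in the promoter windows of the 17 members with a match (rows), as the distance in bases from the annotated start (0, vertical line). Most ISRE matches lie upstream of the start, and those of Ifih1 and Eif2ak2 and 1 match in the second Trim30a window lie downstream of it.

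The signalling members Irf7, Irf9, Stat2 and Usp18 were all higher in AML than in either normal group, although with TMM only Stat2 and Usp18 were called against whole marrow. Irf7 encodes the transcription factor that amplifies type I interferon production. Its normalized count in AML replicates 1 to 7 was 2381, 7296, 1413, 4123, 3635, 2319.9 and 5363, in whole marrow replicates 1 to 4 767, 1404, 1189 and 1127, and in lineage-negative replicates 1 to 4 237, 306, 232 and 381. With the deposited scaling the 3 groups did not overlap, the lowest AML value, of replicate 3, being just above the highest whole marrow value. With TMM the AML libraries no longer all lay above the normal ones. The log2 difference was 1.60 ± 0.33 (SE) against whole marrow (limma, adjusted p = 3.85e-04), 0.91 with TMM and then short of the fold threshold, and 3.55 ± 0.33 against lineage-negative marrow (adjusted p = 4.08e-08).

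Stat2, a transcription factor activated by the type I interferon receptor, had a lowest, median and highest AML count of 1323, 1697 and 3505. Whole marrow had 315, 515, 594 and 574 and lineage-negative marrow 572, 418, 459 and 452. The normal groups lay together and well below every AML library. The log2 differences were 2.02 ± 0.25 (adjusted p = 3.49e-06) and 2.06 ± 0.25 (adjusted p = 1.42e-06), called with both scalings. Irf9, the DNA-binding subunit of the same complex, varied least of all members among the AML libraries (SD 0.31 on the log2 scale) and had a mean of 3055 ± 633 (SD, n = 7) against 1299 ± 361 in whole and 1108 ± 222 in lineage-negative marrow (n = 4 each). Its log2 differences were 1.26 ± 0.21 (adjusted p = 7.27e-05; 0.56 with TMM, not called) and 1.46 ± 0.21 (adjusted p = 1.50e-05). Usp18, which removes ISG15 from proteins and restrains the interferon receptor, was 1.70 and 2.39 log2 units higher, and its AML replicate 3 fell within the whole marrow range. Irf7 overlaps Phrf1 on the opposite strand and Irf9 overlaps Rnf31 on the same strand, so part of their reads may belong to either gene.

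Among the sensors, Ifih1 (MDA5), Dhx58 (LGP2), Zbp1, Ifi204 and Eif2ak2 (PKR), all 5 were higher than in whole marrow and 4 were higher than in lineage-negative marrow. Zbp1, a sensor of Z-form nucleic acid, had a lowest, median and highest AML count of 539, 998 and 2315, with whole marrow at 76.3, 287, 266 and 224 and lineage-negative marrow at 42.7, 52.9, 54.6 and 60.0. Every AML library exceeded every whole marrow library, and the lineage-negative libraries were lower again and close together. The log2 differences were 2.53 ± 0.35 (adjusted p = 1.14e-05) and 4.37 ± 0.35 (adjusted p = 6.45e-09). Ifi204, a DNA-binding protein of the PYHIN family, had AML counts of 948, 2992 and 5740.5 (lowest, median and highest), whole marrow 503, 923, 754 and 758, and lineage-negative marrow 80.2, 75.6, 31.7 and 92.9. Its lineage-negative values were far under all others. The lowest AML value was only just above the highest whole marrow value, and not above it with TMM. The differences were 1.97 ± 0.37 (adjusted p = 1.88e-04) and 5.42 ± 0.37 (adjusted p = 8.65e-10).

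Ifih1 and Eif2ak2 had the smallest differences of the sensors. Ifih1 had AML counts of 873, 1295 and 2218 (lowest, median and highest), whole marrow 326, 661, 654 and 591 and lineage-negative marrow 426, 826, 664 and 799. The AML libraries lay above all normal ones by a small margin at AML replicate 3, though not with TMM. Its difference against lineage-negative marrow was 1.08 ± 0.27 (adjusted p = 0.00251), and the call was lost on leaving out AML replicate 2 (0.97), AML replicate 7 (1.00, short of the threshold) or lineage-negative replicate 1 (0.87). Against whole marrow it was 1.37 (adjusted p = 2.47e-04) and 0.67 with TMM, short of the fold threshold. Eif2ak2, the kinase that halts translation on double-stranded RNA, had AML counts of 886, 1629.9 and 2614, whole marrow 507, 993, 1008 and 949.6 and lineage-negative marrow 1009, 1460.3, 1105 and 1206. The AML range covered the upper whole marrow values and all of the lineage-negative values. Its difference was 1.01 ± 0.27 against whole marrow (adjusted p = 0.00293), just past the fold threshold, and 0.50 ± 0.27 against lineage-negative marrow (adjusted p = 0.135). The call against whole marrow was lost with TMM (0.31) and without AML replicate 2, 5 or 7 or whole marrow replicate 1 (0.77 to 0.94). Dhx58 was 1.94 and 2.03 log2 units higher, past the thresholds with both scalings.

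The OAS family is known for enzymes that make oligoadenylates, which activate RNase L. Oas1a, Oas2, Oasl1 and Oasl2 were higher than in whole marrow, and Oas1a, Oas2, Oas3 and Oasl2 were higher than in lineage-negative marrow. In all 5 genes AML replicate 3 was the lowest AML library, and it overlapped the whole marrow range or lay below it. Oasl2 in AML replicates 1 to 7 was 2327, 4642, 238, 2328, 2111, 3338 and 3634, in whole marrow 355, 739.6, 769 and 756 and in lineage-negative marrow 147, 176, 92.5 and 219. AML replicate 3 was below all 4 whole marrow libraries, and the other AML libraries were above all of them. The difference was 1.71 ± 0.54 against whole marrow (adjusted p = 0.0101), not called with TMM (1.02, adjusted p = 0.160) or without whole marrow replicate 1 (1.44, adjusted p = 0.0646), and 3.75 ± 0.54 against lineage-negative marrow (adjusted p = 1.24e-05).

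Oasl1, which in mice also limits translation of Irf7, showed the smallest upward calls beside Eif2ak2. Its AML counts were 120.1, 320.2 and 659 (lowest, median and highest), with whole marrow at 68.2, 222, 208 and 181 and lineage-negative marrow at 117, 245, 124 and 259.8. The AML range contained most of the normal values of either kind. The difference was 1.04 ± 0.41 against whole marrow (adjusted p = 0.0315), lost with TMM (0.34) and without AML replicate 2, 5 or 7 or whole marrow replicate 1 (0.65 to 0.98), and 0.86 ± 0.41 against lineage-negative marrow (adjusted p = 0.0901), where it was called only without AML replicate 3 (1.10). Oas1a and Oas2 were called in both comparisons and with both scalings, at 2.19 and 2.12 for Oas1a and 2.07 and 4.18 for Oas2. Oas3 missed the thresholds against whole marrow (0.88, adjusted p = 0.051), passed them there without AML replicate 3 (1.18) or whole marrow replicate 3 (1.01), and stood at 3.76 against lineage-negative marrow. The OAS genes are close copies in clusters on chromosome 5, and so are the IFIT genes on chromosome 19, the GBP genes on chromosome 3 and the MX genes on chromosome 16, so reads could have been split or shared between paralogs.

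Of the 9 antiviral effectors, 5 were higher and 1 was lower than in whole marrow, and 8 were higher than in lineage-negative marrow. Ifit3, which binds other IFIT proteins on viral RNA, had counts in AML replicates 1 to 7 of 459, 2337, 196, 922, 1199, 645 and 1290.1. Whole marrow had 187, 377, 256 and 219 and lineage-negative marrow 22.4, 20.2, 2.64 and 20.7, the smallest of which is at the floor of 3 reads in its library. AML replicate 3 lay within the whole marrow range, the other AML libraries above it, and all were far above the lineage-negative libraries. The difference was 5.81 ± 0.55 against lineage-negative marrow (adjusted p = 4.82e-08) and 1.65 ± 0.55 against whole marrow (adjusted p = 0.0129), where it was not called with TMM (0.96) or without whole marrow replicate 1 (adjusted p = 0.0587).

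Ifit1 and Ifit2, its neighbours on the chromosome, encode RNA-binding proteins of the same family. Ifit2 was higher than in whole marrow (1.11 ± 0.31, adjusted p = 0.00455) but not with TMM (0.42) or without AML replicate 2 or 7 or whole marrow replicate 1 (0.94 to 0.99). Against lineage-negative marrow Ifit2 was at 0.94 (adjusted p = 0.0186), short of the fold threshold, and passed it without AML replicate 1, 3 or 6 (1.01 to 1.12). Ifit1 was not called against whole marrow (0.63, adjusted p = 0.239, and −0.07 with TMM) but was 3.29 log2 units higher than in lineage-negative marrow.

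Rsad2 was the only member lower in AML than in whole marrow with the deposited scaling. It encodes viperin, which makes a chain-terminating nucleotide that blocks viral polymerases. Its counts in AML replicates 1 to 7 were 1313, 1832, 547, 1459, 1369, 908 and 1815, in whole marrow 4312, 7466, 8488 and 9372, and in lineage-negative marrow 296, 149, 88.1 and 180.1. Every AML library lay below every whole marrow library and above every lineage-negative library. The log2 difference was −2.53 ± 0.33 against whole marrow (adjusted p = 5.58e-06; −3.22 with TMM) and 2.91 ± 0.33 against lineage-negative marrow (adjusted p = 5.48e-07). Cmpk2, a nucleotide kinase gene which lies 12.751 kb from Rsad2 on chromosome 12, on the opposite strand, was 0.59 ± 0.28 against whole marrow (adjusted p = 0.0675; −0.10 with TMM, the opposite sign) and 1.49 against lineage-negative marrow. The difference between these neighbours was not tested.

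Mx1 and Mx2, dynamin-like GTPases that trap viral components, were higher in both comparisons with both scalings and varied widely among the leukaemias. Mx2 in AML replicates 1 to 7 was 148, 407, 99.3, 228, 431, 22.2 and 444, in whole marrow 29.6, 52.5, 33.4 and 25.9 and in lineage-negative marrow 55.4, 32.6, 18.5 and 49.6. AML replicate 6 was below all whole marrow libraries, and the other AML libraries were above every normal one. The log2 differences were 2.36 ± 0.60 (adjusted p = 0.00232) and 2.29 ± 0.60 (adjusted p = 0.00416). Mx1 was 2.27 and 3.52 log2 units higher, with AML replicate 6 again lowest at 205. Samd9l, a growth-restraining gene linked to myeloid disease in humans, was not called against whole marrow (0.68, adjusted p = 0.0335, and −0.02 with TMM) and was 2.62 higher than in lineage-negative marrow. Trim30a was higher in both comparisons (1.52 and 1.72), though not called with TMM against whole marrow (0.83).

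**Figure D3:**
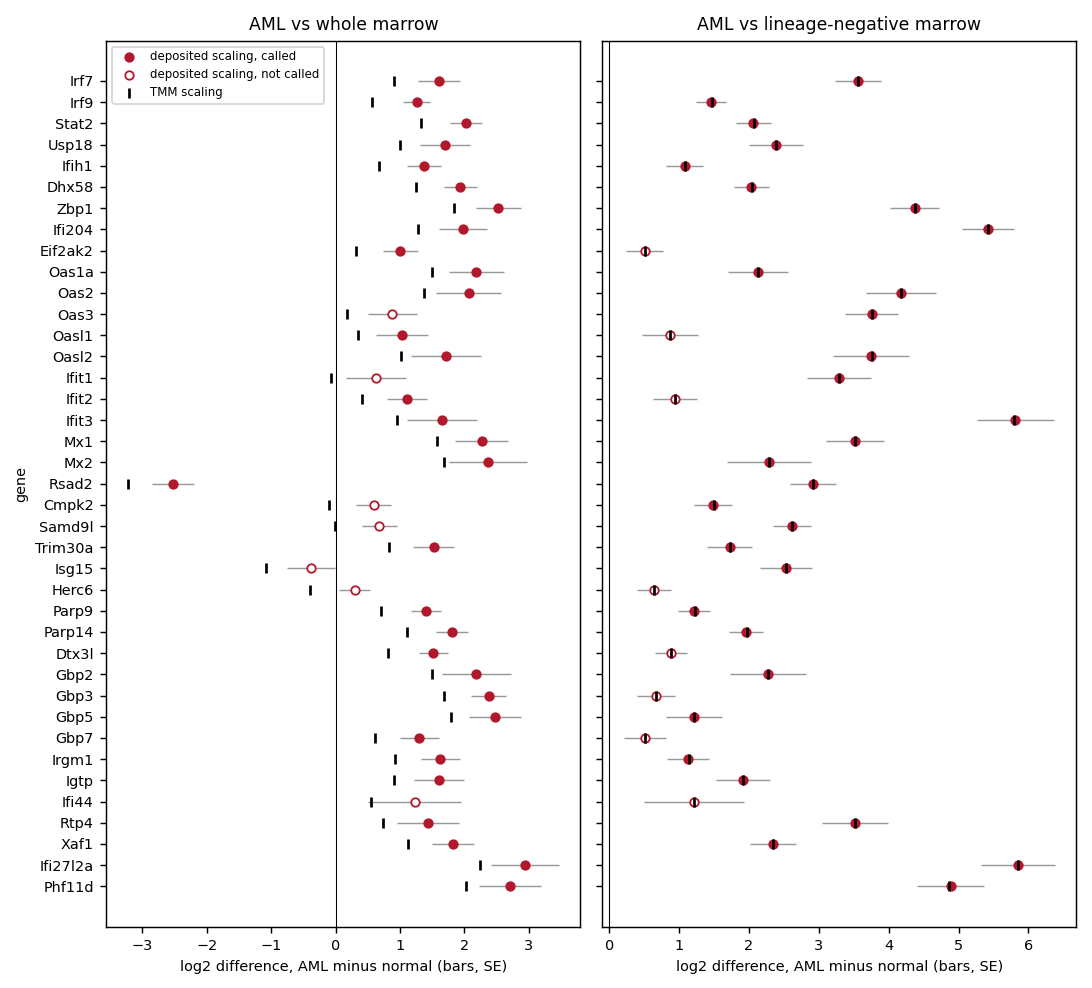
Log2 differences of AML minus whole marrow (left) and AML minus lineage-negative marrow (right) for the 39 genes (rows), with the SE as bars, filled points for called genes and open points for the rest; black ticks give the TMM value. Against whole marrow the ticks sit to the left of the points and Rsad2 stands alone below 0 among called genes, while against lineage-negative marrow all points lie between 0.50 and 5.85 and the ticks coincide with them.

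Neither Isg15 nor its ligase gene was called against whole marrow with the deposited scaling. Isg15 encodes a ubiquitin-like protein that is attached to other proteins, and Herc6 encodes its ligase in mice. Isg15 counts in AML replicates 1 to 7 were 209.9, 560.1, 108, 287, 169.9, 163 and 313, in whole marrow 178, 413, 307 and 344 and in lineage-negative marrow 58.1, 47.6, 20.3 and 39.2. AML and whole marrow overlapped over most of their ranges, and every library of both lay above all lineage-negative libraries. The difference was −0.38 ± 0.37 against whole marrow (adjusted p = 0.383), −1.07 with TMM and then called lower (adjusted p = 0.0247), and 2.53 ± 0.37 against lineage-negative marrow (adjusted p = 1.58e-05). Herc6 was called in neither comparison, at 0.30 against whole marrow (adjusted p = 0.289; −0.40 with TMM, the opposite sign) and 0.64 against lineage-negative marrow (adjusted p = 0.0373).

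Parp9, Parp14 and Dtx3l, enzymes of ADP-ribosylation and ubiquitin transfer that work in interferon signalling, had all 7 AML libraries above all 8 normal libraries with both scalings. Their differences against whole marrow were 1.40, 1.81 and 1.52, of which only that of Parp14 was called with TMM (0.71, 1.11 and 0.82 in the same order). Against lineage-negative marrow they were 1.21, 1.96 and 0.88, the last short of the fold threshold at an adjusted p of 0.00387. Parp9 and Dtx3l overlap by 0.682 kb on opposite strands, and the strand used for counting is not given in the sources used here, so reads of the shared stretch cannot be assigned.

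The 6 interferon-inducible GTPases here are Gbp2, Gbp3, Gbp5, Gbp7, Irgm1 and Igtp, without Mx1 and Mx2, which were grouped with the antiviral effectors. These 6 defend against intracellular pathogens and are classical targets of interferon gamma. All 6 were higher in AML than in whole marrow, and 4 were higher than in lineage-negative marrow. With TMM Gbp2, Gbp3 and Gbp5 kept their calls against whole marrow (1.49, 1.68 and 1.79) and Gbp7, Irgm1 and Igtp did not (0.60, 0.93 and 0.91). Gbp5, which also promotes inflammasome assembly, had counts in AML replicates 1 to 7 of 290.1, 764, 315, 221, 328, 1341 and 463, in whole marrow of 40.4, 103, 75.1 and 117 and in lineage-negative marrow of 263, 141, 152 and 228. AML replicate 6 held the highest value and AML replicate 4 fell inside the lineage-negative range. The difference was 2.48 ± 0.40 (adjusted p = 4.74e-05) against whole marrow and 1.21 ± 0.40 (adjusted p = 0.0188) against lineage-negative marrow. The latter call was lost on leaving out AML replicate 6 (0.94) or lineage-negative replicate 2 or 3 (1.07 and 1.10, adjusted p = 0.0640 and 0.0592).

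Irgm1, a regulator of autophagy and of other GTPases of its family, had AML counts of 1248, 2114 and 3927 (lowest, median and highest), whole marrow 384, 994, 819 and 919.6 and lineage-negative marrow 771, 1386, 971 and 1099. The lowest AML library was within the lineage-negative range and above the whole marrow range. The difference was 1.62 ± 0.30 (adjusted p = 1.72e-04) and 1.13 ± 0.30 (adjusted p = 0.00478), the second call being lost without AML replicate 6 (1.00, short of the threshold) or lineage-negative replicate 1 (0.99). Gbp3 and Gbp7 were not called against lineage-negative marrow (0.67 and 0.51, adjusted p = 0.053 and 0.181). Gbp2 and Igtp were, at 2.27 ± 0.54 and 1.91 ± 0.39. Igtp overlaps its relative Irgm2 on the same strand, so their reads may be partly shared.

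Of the other induced genes, Ifi27l2a, Phf11d, Xaf1 and Rtp4 were higher in both comparisons and Ifi44 in neither. Ifi27l2a, a small mitochondrial protein gene and a common marker of interferon exposure, had the largest difference of all members in both. Its counts in AML replicates 1 to 7 were 5406, 11794, 1314, 5773, 4296, 1127 and 7155, in whole marrow 238, 887, 628.2 and 562 and in lineage-negative marrow 62.6, 119.9, 33.5 and 87.5. The groups did not overlap with the deposited scaling, and AML replicates 3 and 6 lay nearest to whole marrow. With TMM the AML libraries did not all lie above the normal ones. The difference was 2.94 ± 0.53 (adjusted p = 1.23e-04; 2.24 with TMM) and 5.85 ± 0.53 (adjusted p = 3.04e-08).

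Phf11d, a PHD-finger gene, had AML counts of 101.2, 199 and 524 (lowest, median and highest), whole marrow 22.8, 68.0, 31.3 and 28.04 and lineage-negative marrow 5.45, 12.6, 2.64 and 10.54. Lineage-negative values were down to the floor of 3 reads, and no groups overlapped between AML and normal marrow. The differences were 2.71 ± 0.48 (adjusted p = 1.06e-04) and 4.89 ± 0.48 (adjusted p = 9.30e-08). Ifi44 had the widest spread in AML of all members: replicates 1 to 7 had 44.5, 400.4, 17.2, 107, 239.7, 27.1 and 362, against 29.6, 38.9, 47.0 and 51.8 in whole marrow and 19.1, 75.8, 22.9 and 87.5 in lineage-negative marrow. AML replicates 2, 5 and 7 were several-fold above all normal libraries, and replicates 3 and 6 were below all whole marrow libraries. The differences were 1.23 ± 0.72 (adjusted p = 0.142) and 1.21 ± 0.72 (adjusted p = 0.184), and both were called only without AML replicate 3 (1.63 and 1.62). Xaf1, a pro-apoptotic gene, was 1.82 and 2.34 higher, and Rtp4 1.44 and 3.52, the value of Rtp4 against whole marrow not being called with TMM (0.74) or without whole marrow replicate 1 (adjusted p = 0.0935).

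**Figure D4:**
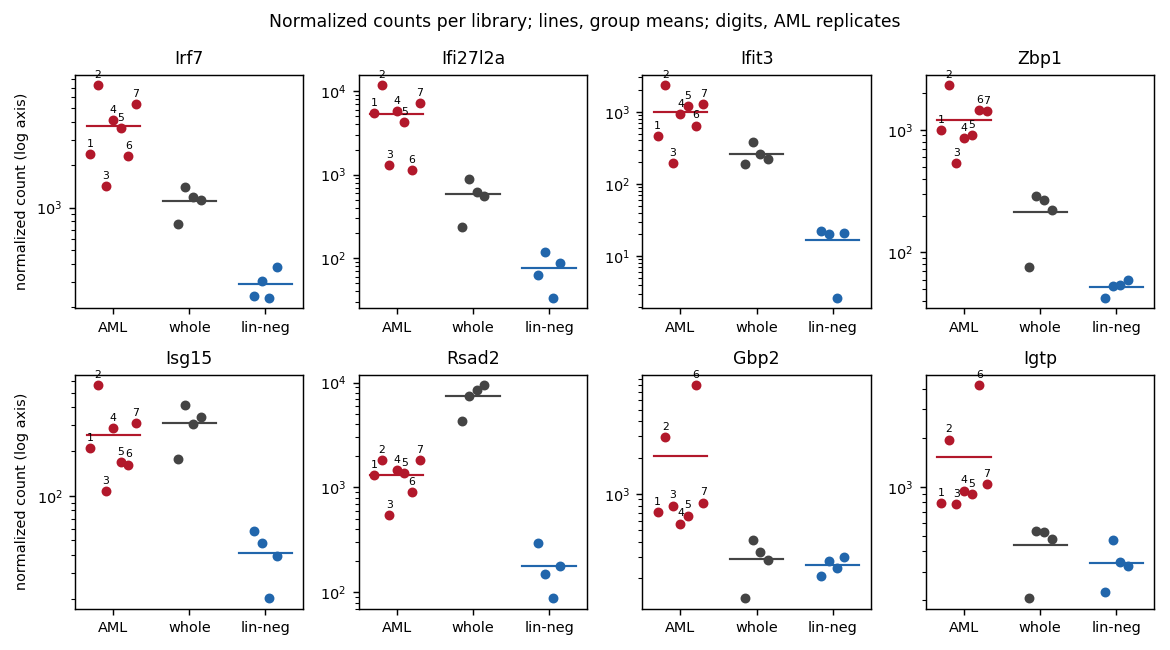
Normalized counts of 8 members in each library on log axes (red, AML with replicate digits; grey, whole marrow; blue, lineage-negative marrow; lines, group means). AML exceeds whole marrow for Irf7, Ifi27l2a and Zbp1, Rsad2 is highest in whole marrow, and AML replicate 6 stands above the rest for Gbp2 and Igtp.

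Levels can be compared between genes only per length of exon. In AML the highest mean normalized count per kb of exon was that of Ifi27l2a (11374), followed by Samd9l (1388), Trim30a (1073) and Irf7 (1004), and the lowest was that of Ifi44 (27.9). In whole marrow Rsad2 led (1709), ahead of Ifi27l2a (1250.1). In lineage-negative marrow the leading level was that of Dtx3l (359), followed by Trim30a (310.1) and Gbp3 (308), and Phf11d was lowest (1.74). The leading gene per length thus differed in each group.

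Among the normal groups, the 15 members lower in lineage-negative than in whole marrow were Irf7, Zbp1, Ifi204, Oas2, Oas3, Oasl2, Ifit1, Ifit3, Mx1, Rsad2, Samd9l, Isg15, Rtp4, Ifi27l2a and Phf11d. The largest difference was that of Rsad2, at −5.44 ± 0.37 (adjusted p = 5.82e-09), ahead of Ifit3 at −4.16 ± 0.62 and Ifi204 at −3.44 ± 0.42. The 2 members higher in lineage-negative marrow were GTPases, Gbp3 at 1.71 ± 0.31 (adjusted p = 8.40e-05) and Gbp5 at 1.27 ± 0.45 (adjusted p = 0.0197). With TMM, 19 members were lower (24.8% of all genes) and Gbp3 alone was higher (11% of all genes). Mx1 (−1.25) lost its call without lineage-negative replicate 3 or whole marrow replicate 2 or 3 (adjusted p = 0.0609 to 0.0708), and Gbp5 lost it without replicate 1 of either group. Since both comparisons with AML and this comparison share libraries, they are not independent.

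The spread among the AML libraries was wide for these genes. The median SD of the members' log2 values was 0.77 over the 7 AML libraries, against 0.28 for the 11270 genes with a mean of at least 100. In whole marrow it was 0.52 against 0.47, and in lineage-negative marrow 0.40 against 0.26. The members' SD was larger in AML than in whole marrow for 33 of 39 and larger than in lineage-negative marrow for 36 of 39, where among the genes with a mean of at least 100 this held for 2499 and 6215 of 11270. The largest AML SDs were those of Ifi44 (1.82), Mx2 (1.55) and Oasl2 (1.43).

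The order of the AML libraries was largely shared by the members. All 39 were above their AML mean in replicate 2 and below it in replicate 3, on the log2 scale. Replicate 2 was the highest AML library for 24 of 39 members (8.92% of all genes had their highest AML value there), and replicate 3 the lowest for 30 of 39 (19.7% of all genes). Replicate 7 was the highest for 8 and replicate 1 for Samd9l. The members' median deviation from the AML mean was 0.79 in replicate 2 and 0.59 in replicate 7, and −1.02 in replicate 3. Over all genes the medians lay between −0.05 and 0.10 in every AML library.

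The 6 GTPases shared only part of that order. Like the other members, they were above their AML mean in replicate 2 and below it in replicate 3. Replicate 3 was the lowest for 4 of 6 (19.7% of all genes). In replicate 7 their median deviation was −0.06. All 6 were highest in AML replicate 6, where 0 of the other 33 members, Mx1 and Mx2 included, were highest and where 15.4% of all genes were. Their median deviation there was 1.35, while that of the other 33 was −0.31. Gbp2, in AML replicates 1 to 7, had 710.0, 2943, 799, 566, 659.8, 7921 and 847 normalized counts, and Igtp had 796, 1949.7, 785, 946, 902, 4193 and 1041. Replicate 6 alone carried much of the AML mean of Gbp2, which was 2064 over 7 libraries and 1088 without it. The members with their AML minimum in replicate 6 were Mx1, Mx2, Ifi27l2a, Phf11d, Stat2 and Dhx58, 6 of 39 (15.4%), a smaller share than the 22.7% of all genes. Among 9 tested GTPase genes of a second list of interferon-stimulated genes, 9 were likewise highest in replicate 6. This subset was formed after the member pattern had been seen. The lowest AML library of these 9 was replicate 1 for 7 (10.1% of all genes) and replicate 3 for 2 (19.7%). Of the 41 other genes tested of that list, 20 were highest in replicate 2 (8.92% of all genes) and 3 in replicate 6 (15.4%). Replicate 3 was the lowest for 19 of these 41 (19.7%) and above the AML mean for 8.

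**Figure D5:**
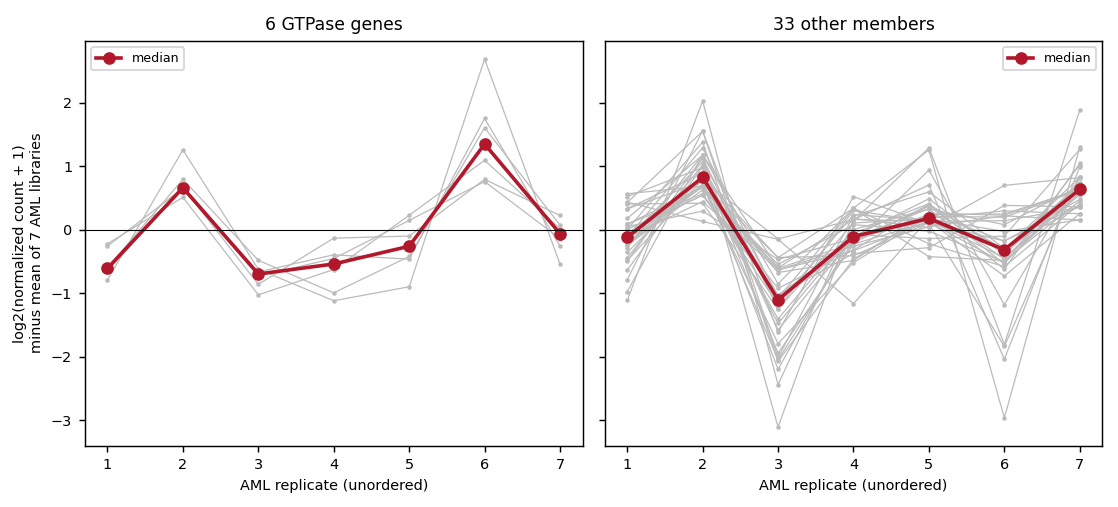
Deviation of each gene from its mean over the 7 AML libraries, on the log2 scale, for the 6 GTPase genes (left) and the 33 other members (right); grey lines are genes and the red line is their median, and the replicates have no order. The GTPases peak in replicate 6, with a median of 1.35, and the others in replicates 2 and 7, with a common minimum in replicate 3.

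Genes upstream of the module were read for the same libraries. Of 21 interferon genes listed, 10 were in the table and Ifng was the only one that passed the filter. Ifng, the gene of interferon gamma, had 3.82, 27.02, 46.6, 7.605, 9.44, 128 and 2.16 in AML replicates 1 to 7, 3.59, 10.7, 9.87 and 12.3 in whole marrow and 2.70, 5.29, 3.53 and 3.26 in lineage-negative marrow. Its highest value by far was in AML replicate 6, and its AML mean was 32.1 with and 16.1 without that library. It was not called in either comparison (0.74 and 1.77, adjusted p = 0.399 and 0.0628). Ifnb1, the gene of interferon beta, was at 4.31 in AML replicate 7, 1.69 in replicate 4 and 0 in the other 13 libraries, where the floor of 3 reads was 1.96 to 4.09.

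Of 32 listed receptors, kinases, transcription factors, upstream sensors and negative regulators, 25 were higher and 0 lower in AML than in whole marrow (8 and 0 with TMM), and 18 were higher and 0 lower than in lineage-negative marrow (18 with TMM). Of all genes tested, 27.3% were higher and 11.3% lower than in whole marrow (4.73% and 16% with TMM). Against lineage-negative marrow these shares were 17.7% and 12.5% (17.6% and 12.4% with TMM). With TMM the genes of this list called against whole marrow were Ifngr1, Irf5, Irf8, Tlr3, Tlr7, Tlr9, Sting1 and Trex1. Of the 8 receptor and kinase genes 6 were higher than in whole marrow, but 1 with TMM, and 2 were higher than in lineage-negative marrow. The last count is near the share of all genes (17.7%). Ifnar1 and Ifnar2, the chains of the type I interferon receptor, were 1.08 and 1.36 log2 units higher, neither being called with TMM, and 0.99 and 0.88 against lineage-negative marrow, both short of the fold threshold. Ifngr1 and Tyk2 had the largest differences of the group against whole marrow (1.70 and 1.69) and Jak2 (1.03) and Ifnar1 the smallest of those called. Against lineage-negative marrow only Ifngr2 (1.95) and Ifnlr1 (5.46), the latter a chain of the type III interferon receptor, were called.

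Transcription factors of the pathway were also read. Irf1, an early target of interferon gamma, had 2273, 3119 and 6855 as its lowest, median and highest AML count and was highest in replicate 6, with differences of 1.48 and 1.72. Irf5 and Irf8, factors of monocyte and dendritic cells, had the largest differences against whole marrow (2.20 and 2.33), and Irf3 and Stat3 the smallest (1.10 and 1.14). Irf2 (1.27) and Irf8 (1.12) had the smallest called differences against lineage-negative marrow, and Irf5 the largest (3.42).

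Of 11 upstream sensors and adaptors 8 were higher than in whole marrow (27.3% of all genes) and 6 than in lineage-negative marrow (17.7%). With TMM these counts were 4 (4.73%) and 6 (17.6%). The endosomal RNA and DNA receptors led, with Tlr3 at 2.82 and Tlr9 at 2.64 against whole marrow and Tlr3 at 4.65 and Tlr7 at 4.61 against lineage-negative marrow. The smallest called differences against whole marrow were those of Cgas (1.31) and Ikbke (1.43), and against lineage-negative marrow those of Sting1 (1.04) and Ddx58 (1.70). Among the 6 negative regulators 4 were higher in each comparison, but 1 against whole marrow with TMM. Trex1, a nuclease that removes stray DNA, was 2.49 and 2.92 higher, and Samhd1, which depletes nucleotides, 1.60 and 2.97. Socs1, the feedback inhibitor of JAK kinases, was 1.23 and 1.51 higher, with 443 in AML replicate 6 against at most 138 in the other AML libraries. Adar (1.32) was higher than in whole marrow and Socs3 (2.22) than in lineage-negative marrow.

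A second list of interferon-stimulated genes outside the 39 had 50 genes tested. Of these, 40 were higher and 2 lower than in whole marrow (19 and 2 with TMM), and 32 were higher and 0 lower than in lineage-negative marrow (33 and 0 with TMM). Of all genes, 27.3% were higher and 11.3% lower than in whole marrow (4.73% and 16% with TMM). Against lineage-negative marrow 17.7% were higher and 12.5% lower (17.6% and 12.4% with TMM). The median log2 difference was 1.65 and 1.92. The 2 lower genes were Isg20, an exonuclease gene, and Ube2l6, which encodes the conjugating enzyme for ISG15. Isg20 had a lowest, median and highest AML count of 143, 213 and 249.7 against 1069.8, 1963, 2035 and 2244 in whole marrow, a difference of −3.08 ± 0.24 (adjusted p = 1.72e-08). Ube2l6 had 603, 816 and 979 against 3044, 5156, 5666 and 6425, a difference of −2.68 ± 0.20 (adjusted p = 1.10e-08). As for Rsad2, all 7 AML libraries lay below all 4 whole marrow libraries. The largest upward differences were those of Ifi205 (3.88) and Phf11a (2.76) against whole marrow, and of Ifit3b (6.64) and Ifi213 (5.68) against lineage-negative marrow, where Ifitm2 (1.11) and Trim12c (1.09) were the smallest called.

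Cell type markers moved with these groups, and their part in the results was not tested. The summed counts of 10 erythroid markers were 399 to 32022 in AML, 804911 to 1985020 in whole marrow and 18571 to 57367 in lineage-negative marrow, and all 10 were lower in AML than in whole marrow, as were Rsad2, Isg20 and Ube2l6. Against lineage-negative marrow 4 of the 10 were lower and 0 higher. Rsad2 was higher there (2.91), and the mean counts in AML and lineage-negative marrow were 773 and 426 for Ube2l6 and 210 and 351 for Isg20. The sums of 10 monocyte markers were 80040 to 141295 in AML against 17237 to 37464 in whole marrow and 20550 to 31922 in lineage-negative marrow, with 9 of 10 higher in either comparison (5 of 10 with TMM against whole marrow). For 10 conventional dendritic cell markers the sums were 24294 to 194711 in AML, highest in replicate 3, against 3530 to 6886 and 2870 to 3518, and 10 of 10 were higher than in whole marrow (8 of 10 with TMM) and 8 of 10 than in lineage-negative marrow. Most of the sum in replicate 3 came from H2-Aa (85245) and H2-Ab1 (77894). Mature neutrophil markers summed to 2114 to 18222 in lineage-negative marrow, 432360 to 1151360 in whole marrow and 399809 to 1392140 in AML, with 0 of 10 called in AML against whole marrow (2 lower with TMM) and 10 of 10 higher against lineage-negative marrow. B cell markers summed to 653 to 8869 in AML, 4682 to 9964 in whole marrow and 339 to 647 in lineage-negative marrow. Against whole marrow 9 of 10 of them were lower and 0 higher with both scalings. That direction was also the one of the erythroid list, Rsad2, Isg20 and Ube2l6. Against lineage-negative marrow 8 of 10 B cell markers were higher and 0 lower. Marrow macrophage markers summed to 4452 to 9502, 2420 to 5732 and 513 to 993 in the same order of groups. No marker of these 6 lists was at or under 3 reads in every library of a group.

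Marker sums also varied between the AML libraries. Plasmacytoid dendritic cells are known for making type I interferon. The sums of 10 of their markers were 6100, 14012, 6371, 12560, 9472, 2304 and 14006 in AML replicates 1 to 7. They were lowest in replicate 6, and replicate 1 lay below replicate 3. Against whole marrow 4 of 10 of these markers were higher and 0 lower, but 1 higher and 1 lower with TMM, and against lineage-negative marrow 8 of 10 were higher with both scalings. The shares of all genes that were higher were 27.3% (4.73% with TMM) and 17.7% (17.6% with TMM). The sums of 10 T cell markers, from a source of interferon gamma, were 5343 in replicate 6 and 5385 in replicate 3, against 1319 to 3635 in the other AML libraries. The sums of 8 NK cell markers were 1053 in replicate 6 and between 599 and 1907 in all AML libraries. How far these cells account for the levels of the members in each library was not tested.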

How the data were processed

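Bulk RNA libraries of 15 mouse marrow samples were analysed, 7 of AML, 4 of wild-type whole marrow and 4 of wild-type lineage-negative marrow, grouped by their titles. RNA was extracted with TRIzol and libraries were made with a stranded total RNA kit, per the labels' protocols. The submitters' processing notes name Partek, STAR, DESeq2 and mm10, without versions. The authors deposited size-factor normalized counts per gene (a signal, of the poscounts type by the table's name), and whether counting used strand is not given in the sources used here. Of the table's identifiers 38066 occur in a GRCm38 annotation, 37557 with the same length and 861 with the same start, so the build of the table's coordinates is unsettled and none is printed.

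Between 82.2% and 87.1% of the low values of a library (under 20 steps) were whole multiples of 1 step, the value of 1 read, within 0.02 of a step. Whole reads were therefore not recovered, and depth was estimated as the total of the values divided by that step. A floor of 3 reads covers counting error only.

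Values were analysed as log2(normalized count + 1), so fold changes of low genes are understated. Genes with a value of at least 10 in at least 4 libraries were kept (18941; 19374 were removed). A single limma fit of 3 group means (limma 3.58.1, R 4.3.3, trended empirical Bayes, two-sided) was adjusted by Benjamini-Hochberg over all genes kept, and a gene counted as called where the adjusted p was under 0.05 and the log2 difference was 1 or more in size. In a simulation of AML against whole marrow with 18941 genes, 157 of 200 genes changed by 2 log2 units and 5 unchanged genes were called. Unchanged genes had a common mean in all groups and independent normal noise. The simulation therefore does not bear on the difference in scaling between AML and whole marrow.

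The members, roles, pathway and marker lists were chosen with earlier results of these data known. Values by library, for some genes with the 7 AML values as the lowest, median and highest, are given for Irf7, Stat2, Isg15, the called members with the 3 largest and 3 smallest differences in each comparison with AML, and the 3 with the largest AML SD, and those of Gbp2 and Igtp were added after their values had been seen. From each pathway list the text names at most the 2 largest and 2 smallest called differences per comparison, and Irf1, Ifnar1, Ifnar2, Ifnb1 and Ifng. The values of 1 further gene are not reported here.

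Alternatives were TMM scaling computed on the genes kept, a pseudocount of 0.1 or 5, a table of every gene above 0 in any library, a table cut at a mean of 50, only the 2 groups compared, the replicate number as a block, and leaving out each library. Python 3.11.15 with pandas 2.3.3 was used for counts and figures.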

Additional observations from a re-analysis of the deposited data

Results flagged for a closer look

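Over 45 genes (the 39 members and 6 genes of the pathway) in 3 groups, 14 of 135 sets of values had a library at an end that stood apart from the rest by Dixon's criterion, of which chance gives about 1 in 20. Whole marrow replicate 1 accounted for 7 of them, always as the lowest whole marrow library: Irf9 was 759, Eif2ak2 507, Oasl2 355, Herc6 288, Dtx3l 750, Gbp7 519 and Ifnar1 882 normalized counts there. That library also had the smallest estimated depth, 11.4 M reads. Its deposited values were low across genes, summing to 1.02e+07 against 1.79e+07 to 1.93e+07 in the other whole marrow libraries. Its TMM divisor was 0.468, against 0.792 to 0.816 in those. The flags were set on the deposited values, so these 7 are not particular to the genes named. Without it 25 members in place of 31 were higher in AML than in whole marrow. The matching share of all genes is not given here, so the drop cannot be called particular to the members.

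AML replicate 6 was the highest AML library by this criterion for Gbp2 (7921), Igtp (4193) and Ifng (128). AML replicate 7 was the highest for Ifnb1, at 4.31. AML replicate 3 was the lowest for Cmpk2, at 914. In lineage-negative marrow Ifit3 was lowest in replicate 3, at 2.64, which is 3 reads, and Dtx3l was highest in replicate 2, at 2391.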

How the results depend on the processing

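With TMM scaling 16 members were higher and 2 lower in AML than in whole marrow, in place of 31 and 1, 1 was higher in lineage-negative than in whole marrow, in place of 2, and 10 in place of 16 had all AML libraries above all normal ones. TMM turned the sign against whole marrow for Cmpk2 (−0.10), Herc6 (−0.40), Ifit1 (−0.065) and Samd9l (−0.016), none of them called. Both pseudocounts, both filters and fits of only the 2 groups compared left every count of calls as it was. Leaving out 1 library gave 25 to 33 higher and 1 to 1 lower against whole marrow, 29 to 34 higher and 0 to 0 lower against lineage-negative marrow, 1 to 2 higher and 14 to 16 lower in lineage-negative against whole marrow, and 16 to 25 above all normal libraries, the largest without AML replicate 3. The shares of all genes called without each library are not given here, so these counts are not set against all genes. The cause of these changes was not tested.

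Replicate numbers did not pair the samples: same-numbered libraries of different groups had correlations of −0.29 to 0.17, and 1, 1 and 2 of 4 samples correlated best with their own number. With the replicate number as a block, in which AML replicates 5 to 7 have no partner, 25 members were higher and 1 lower in AML than in whole marrow, 28 and 0 than in lineage-negative marrow, and 2 and 15 in lineage-negative against whole marrow. The shares of all genes called in that fit are not given here. Depth limits the statements on Ifnb1, and on Ifit3 and Phf11d in lineage-negative replicate 3, which are at or near the floor of 3 reads.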
